A study of Mus musculus with 7 samples.

Results

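The proteasome is the protein complex that degrades ubiquitin-tagged proteins, and its subunits and dedicated assembly chaperones are described here in bone marrow hematopoietic stem cells (HSCs) of mice. Members were the protein-coding genes whose symbols begin with Psma, Psmb, Psmc, Psmd, Psme, Psmf or Psmg and a number, plus Pomp. That rule found 51 genes among the 55855 gene identifiers of the table, of which 21980 are protein-coding. The classes were 16 core genes (Psma and Psmb), 3 immunoproteasome genes (Psmb8, Psmb9 and Psmb10), 21 cap genes (Psmc and Psmd), 5 activators (Psme), 5 assembly genes (Psmg1 to Psmg4 and Pomp) and the inhibitor gene Psmf1. The rule used names only and no measured value.

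The study deleted Fth1, the heavy chain of the iron-storage protein ferritin, in the hematopoietic system of mice. Bulk polyA RNA was sequenced from 4 libraries of Fth1-deleted HSCs (genotype Fth1△/△) and 3 libraries of control HSCs (genotype Fth1fl/fl, floxed alleles without deletion), all from mice aged 2 months. The driver of the deletion, the sorting markers and the number of mice behind each library are not given in the sources used here. The p-values therefore measure the spread between libraries, which may be partly technical.

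The proteasome is built from a barrel-shaped core and a cap. In the core, rings of alpha subunits (Psma) enclose rings of beta subunits (Psmb), of which Psmb5, Psmb6 and Psmb7 hold the proteolytic sites. The cap binds ubiquitinated proteins, removes the ubiquitin and unfolds the chain: its base carries the ATPase ring (Psmc1 to Psmc6), and its lid holds Psmd subunits, among them the deubiquitinase Psmd14. Chaperones of the Psmg family and Pomp assemble the core, and blood cells can exchange the proteolytic subunits for the interferon-inducible Psmb8, Psmb9 and Psmb10. HSCs are known for low protein synthesis and a tightly kept protein quality.

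Fth1 itself, the check of the labels, was 202, 333, 358 and 114 FPKM in Fth1-deleted libraries 1 to 4, against 552, 659 and 638 FPKM in control libraries 1 to 3. Every Fth1-deleted library lay below every control library, with a log2 difference of -1.42 (SE 0.33 by limma, adjusted p = 0.193). FPKM counts fragments scaled to gene length and sequencing depth. The length that turned nearly all low values into whole reads is the mean over a gene's annotated transcripts. It can differ from the length of the transcripts expressed. Levels and ratios of different genes therefore depend on that length, while a gene compared between libraries does not. Depth recovered from the FPKM steps was 12806902 to 15453168 counted reads in Fth1-deleted libraries and 12058392 to 15046058 in control libraries. The libraries differed in ways the genotype does not name. Ribosomal RNA took 1.21% to 1.34% of reads in Fth1-deleted libraries, against 0.0253%, 0.984% and 0.0140% in control libraries 1, 2 and 3. The mitochondrial transcript mt-Co2 had 15332 reads in Fth1-deleted library 3 and 23435 in control library 1, and 566 to 782 reads elsewhere. Y-linked reads were present in Fth1-deleted libraries 1, 2 and 3 and in control library 2. Of 12 HSC markers tested, 2 had a positive log2 difference, and the summed level was 685 to 914 FPKM in Fth1-deleted libraries and 983 to 1643 FPKM in control libraries. Of 8 macrophage markers 0 passed and 6 were above 0; they summed to 50.5 to 147 FPKM in Fth1-deleted libraries and 22.7 to 46.4 FPKM in control libraries. Neutrophil and monocyte markers (0 of 10 passed, 9 above 0) summed to 189.8 to 582 FPKM in Fth1-deleted libraries and 156 to 366 FPKM in control libraries. B cell markers (0 of 7 passed, 7 above 0) summed to 24.2 to 87.8 FPKM in Fth1-deleted libraries and 12.1 to 26.2 FPKM in control libraries. T and NK cell markers (0 of 3 passed, 2 above 0) summed to 82.9 to 143 FPKM in Fth1-deleted libraries and 22.4 to 114 FPKM in control libraries, most of it Nkg7. In control library 3, Klrb1c had 11.7 FPKM beside 26.1 FPKM of Nkg7. Cd3e was listed at 0 in every library. Multipotent and lymphoid progenitor markers (0 of 5 passed, 4 above 0, Il7r at 0) summed to 141 to 263 FPKM in Fth1-deleted libraries and 72.5 to 118 FPKM in control libraries. Mast cell and basophil markers (0 of 3 passed, 3 above 0, Mcpt8 and Prss34 at 0) summed to 16.04 to 44.4 FPKM in Fth1-deleted libraries and 0 to 12.9 FPKM in control libraries. Erythroid markers (0 of 7 passed, 6 above 0) summed to 112 to 448 FPKM in Fth1-deleted libraries and 54.3 to 331 FPKM in control libraries. Megakaryocyte markers (0 of 6 passed, 3 above 0) summed to 917 to 1100 FPKM in Fth1-deleted libraries and 617 to 917 FPKM in control libraries. Dendritic cell markers (0 of 2 passed, 1 above 0, Siglech at 0) summed to 44.2 to 176 FPKM in Fth1-deleted libraries and 127 to 168 FPKM in control libraries. The sums of the HSC, macrophage, progenitor and mast cell lists did not overlap between the groups. The HSC sum was lower in Fth1-deleted libraries and the other sums were higher. The part of these differences in the proteasome results was not tested, beyond the values with and without the libraries concerned. In bulk samples, fewer cells of a type and less RNA per cell cannot be told apart.

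The promoters of the 3 members with the smallest p in the comparison of the groups are shown first, because these genes lead the results that follow. Each sequence is the RefSeq promoter of build GRCm38.p6 on the plus strand, 5′ to 3′, ended before the annotated gene, with motif matches in capitals. Capitals mark TGCTGAG in Psmg4, the minus-strand match of TGACNNNGC (a core of the antioxidant response element, bound by NRF2 and NRF1) in Psmd12, and CCAAT (the core of the CCAAT box, bound by NF-Y) in Psmb3. Psmg4 is shown at chr13:34162714-34162963, Psmd12 at chr11:107479278-107479483 and Psmb3 at chr11:97703184-97703398.
Psmg4: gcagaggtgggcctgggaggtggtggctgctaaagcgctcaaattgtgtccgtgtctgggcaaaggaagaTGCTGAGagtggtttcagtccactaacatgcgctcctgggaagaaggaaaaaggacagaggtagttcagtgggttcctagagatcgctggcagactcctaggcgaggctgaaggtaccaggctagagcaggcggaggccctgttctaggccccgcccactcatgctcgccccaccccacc
Psmd12: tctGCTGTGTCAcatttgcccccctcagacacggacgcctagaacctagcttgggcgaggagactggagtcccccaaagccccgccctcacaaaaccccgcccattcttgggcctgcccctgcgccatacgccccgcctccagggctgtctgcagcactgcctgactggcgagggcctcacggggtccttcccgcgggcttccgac
Psmb3: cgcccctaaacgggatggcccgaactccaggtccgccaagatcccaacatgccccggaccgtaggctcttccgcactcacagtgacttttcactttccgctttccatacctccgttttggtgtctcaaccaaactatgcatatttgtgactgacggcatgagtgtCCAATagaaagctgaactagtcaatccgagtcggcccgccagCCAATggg
The TGCTGAG of Psmg4 starts at position -180 and the TGACNNNGC of Psmd12 at position -247, counted from the RefSeq start. The CCAAT boxes of Psmb3 start at -85 and -43. Promoters of 300 bases (250 before to 50 after the start) were found for 43 members and searched on both strands. TGACNNNGC was in 6 of the 43 (13.95%), namely Psmb5, Psmb6, Psmc6, Psmd12, Psmd9 and Psme4, against 12.5% of all 27025 promoters. TGCTGAG, a core of the Maf recognition element, was likewise in 6 of the 43 (13.95%), namely Psma5, Psma7, Psmb9, Psme3, Psmf1 and Psmg4, against 7.70% of all promoters. It can overlap a minus-strand match of TGACNNNGC in its last letters, and no member promoter held both. CCAAT was in 15 of the 43 members (34.9%), against 37.9% of all promoters. A match is a description of these letters, not of a bound site.

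No proteasome gene passed the test between the groups, whereas 8 of the 13948 genes tested did (0.0574%), 4 of them higher (0.0287%) and 4 lower (0.0287%) in Fth1-deleted HSCs. The test was limma on log2(FPKM + 1) over genes with a mean of at least 1 FPKM, with p adjusted over all genes tested and a threshold of 0.05. A voom test on the recovered reads called 0 members too. Of the 51 members, 50 were tested; Psmb11, the thymus-type beta subunit, was listed at 0 in every library. At an unadjusted p under 0.05, 9 members were higher in Fth1-deleted HSCs (18%, against 4.9% of all genes tested) and 0 were lower (against 4.93%). In 9 members every Fth1-deleted library lay above every control library (18%, against 4.1% of all genes tested), and in 0 members every Fth1-deleted library lay below (against 5.55%). The log2 difference was above 0 in 32 of 50 members (64%, against 48.7% of all genes tested), and its median was 0.18 over members and -0.02 over all genes tested. Among genes with a mean of at least 10 FPKM, 9 of 48 members (18.8%) were higher without overlap, against 5.03% of 8725 genes.

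**Figure D1:**
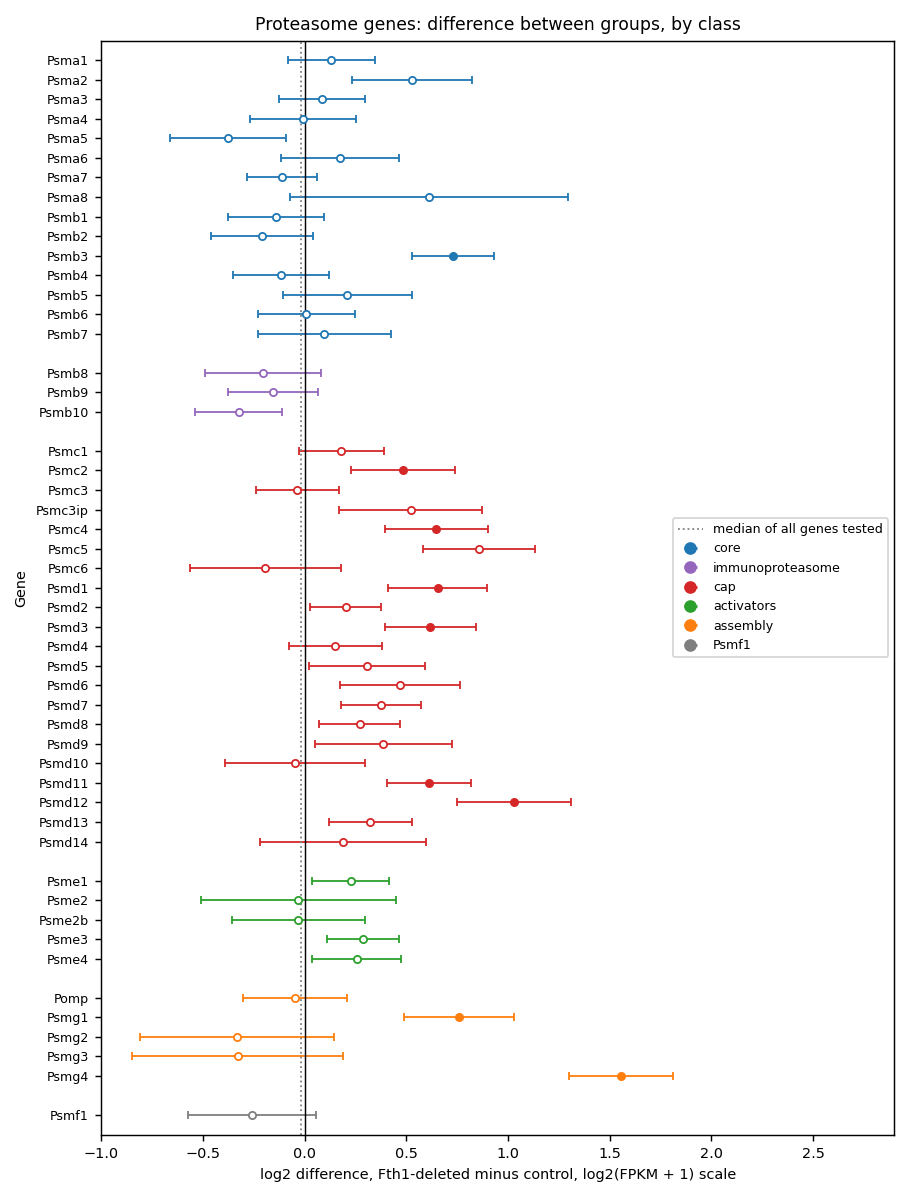
Difference of Fth1-deleted less control HSCs in log2(FPKM + 1) for the 50 members tested, grouped by class; points are the limma estimates, bars 1 SE, and filled points the members whose groups do not overlap. The dotted line is the median of all genes tested. The filled points are 9 members, 6 of them in the cap, and Psmg4 lies farthest right at 1.56.

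The cap is the class with the most genes higher in Fth1-deleted libraries: 18 of 21 log2 differences were above 0 (85.7%, against 48.7% of all genes tested). The median was 0.38, the mean 0.38 and the range -0.19 to 1.03. In 6 of the 21 every Fth1-deleted library lay above every control library (against 4.1% of all genes tested). None of the 21 passed the adjusted test. The summed cap level was 2343, 2008, 1981 and 2346 FPKM in Fth1-deleted libraries 1 to 4, against 1816, 1566 and 1912 FPKM in control libraries 1 to 3. Every Fth1-deleted sum lay above every control sum. All genes tested also summed higher, at 761158 to 830541 FPKM in Fth1-deleted libraries, against 738320 to 755716 FPKM in control libraries. As a share of summed FPKM, the cap took at least 0.260% in Fth1-deleted libraries and at most 0.253% in control libraries. The sums of HSC, macrophage, progenitor and mast cell markers given above separated the groups as well. Their part in the cap values was not tested. The median over cap genes of each gene's deviation from its own mean over the 7 libraries was 0.37, 0.05, -0.01 and 0.29 in Fth1-deleted libraries 1 to 4, against -0.20, -0.36 and -0.11 in control libraries 1 to 3. Over all genes tested this deviation stayed between -0.05 and 0.05 in every library. The cap median was 0.52 with the 5 libraries of high ribosomal RNA, which hold control library 2 alone as control, and 0.47 with the 5 libraries of low mt-Co2. Without Psmc3ip and the base chaperones Psmd5, Psmd9 and Psmd10 the median was 0.38 over 17 genes.

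Within the lid, all 8 subunits (Psmd3, Psmd6, Psmd7, Psmd8, Psmd11, Psmd12, Psmd13 and Psmd14) had a log2 difference above 0, with a median of 0.42. Of all genes tested, 48.7% were above 0. In 3 of the 8 the Fth1-deleted libraries were higher without overlap (against 4.1% of all genes tested). Psmd12 (chr11:107479484-107504362, plus strand), a scaffold subunit of the lid, had 57.8, 41.5, 58.2 and 64.4 FPKM in Fth1-deleted libraries 1 to 4, against 30.9, 32.3 and 18.2 FPKM in control libraries 1 to 3. The lowest Fth1-deleted library lay above the highest control library. The fold of the means was 2.04 and the log2 difference 1.03 (SE 0.28 by limma, adjusted p = 0.283, two-sided exact permutation p = 0.0286). With 4 against 3 libraries there are 35 splits, and 0.0286 is the smallest p they can give. Psmd11 (chr11:80428615-80473248, plus strand), another scaffold subunit, had 87.1, 109, 103 and 90.2 FPKM in Fth1-deleted libraries, against 64.2, 74.6 and 52.4 FPKM in control libraries. Its groups did not overlap, and the log2 difference was 0.61 (SE 0.21 by limma, adjusted p = 0.383). A transcript 97.9% identical to part of Psmd11, A730017L22Rik, could share its reads.

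Psmd3 (chr11:98682554-98695979, plus strand), also a scaffold of the lid, had 128, 116, 104 and 128 FPKM in Fth1-deleted libraries 1 to 4, against 92.2, 55.1 and 89.7 FPKM in control libraries 1 to 3. Control library 2 was the low one, and the groups did not overlap. The log2 difference was 0.62 (SE 0.22 by limma, adjusted p = 0.422). Psmd14, the deubiquitinase that cuts ubiquitin chains from the substrate, was named after its values were seen, as were the cap genes below that are not singled out by p or level. It had 142, 101, 70.3 and 148 FPKM in Fth1-deleted libraries, against 130.1, 43.0 and 163 FPKM in control libraries. Its groups overlapped, with library 2 the low one among controls and library 3 the highest of all, and its log2 difference of 0.19 (SE 0.41) was -0.39 without control library 2. The remaining lid subunits Psmd6, Psmd7, Psmd8 and Psmd13 had overlapping groups and log2 differences of 0.47, 0.38, 0.27 and 0.32.

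**Figure D2:**
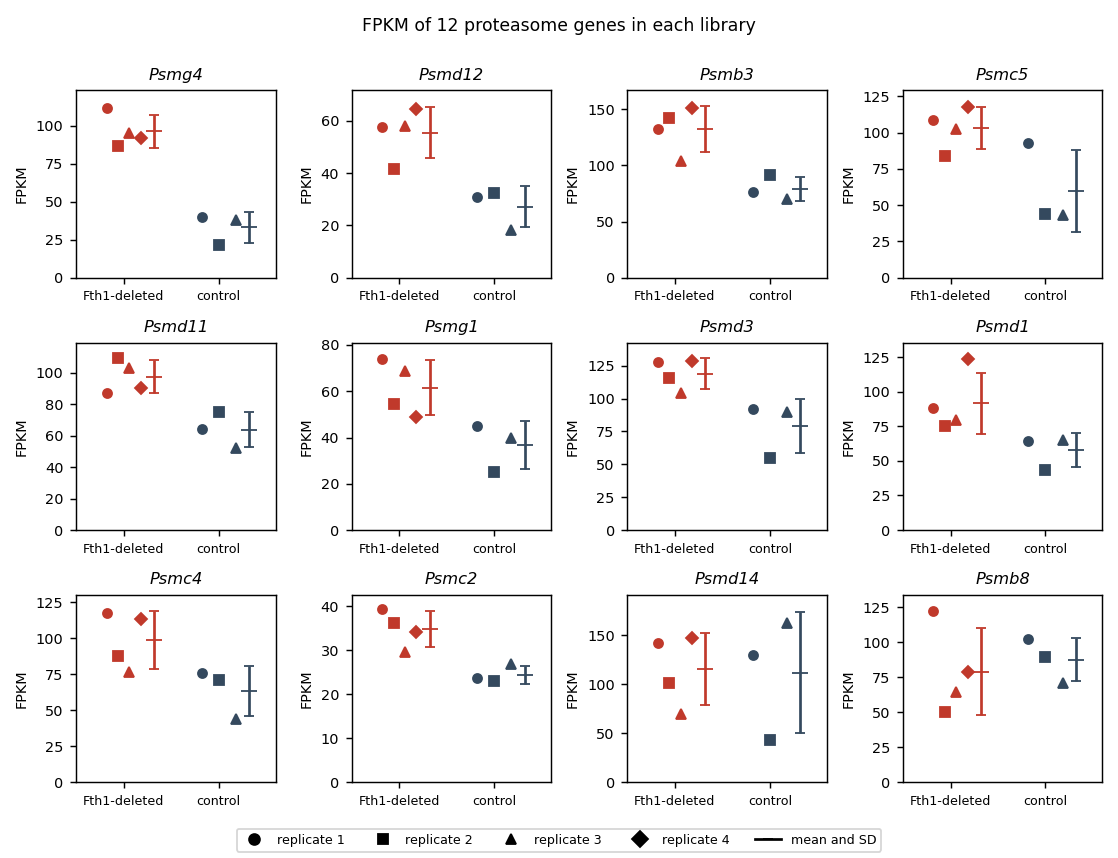
FPKM of 12 proteasome genes in each library on linear axes that start at 0, with Fth1-deleted libraries left and control libraries right; symbols are replicate numbers and bars the mean ± SD (n = 4 and n = 3). The groups do not overlap in Psmg4, Psmd12, Psmb3, Psmd11, Psmg1, Psmd3, Psmd1, Psmc4 and Psmc2, and overlap in Psmc5, Psmd14 and Psmb8.

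In the base, 4 of the 6 ATPase genes had a log2 difference above 0 (66.7%, against 48.7% of all genes tested), with a median of 0.33. Psmc2 and Psmc4 were higher without overlap, as were 4.1% of all genes tested. Psmc5 (chr11:106256154-106263120, plus strand), 1 of the 6 ATPases that unfold substrates, had 108, 83.7, 103 and 118 FPKM in Fth1-deleted libraries 1 to 4, against 92.6, 43.8 and 43.2 FPKM in control libraries 1 to 3. Control library 1 lay above Fth1-deleted library 2, so the groups overlapped. The log2 difference was 0.86 (SE 0.28 by limma, adjusted p = 0.367). Psmc4 (chr7:28041707-28050101, minus strand) had 118, 87.7, 76.7 and 113 FPKM in Fth1-deleted libraries, against 75.6, 71.3 and 43.8 FPKM in control libraries. The groups were separated by little, 76.7 FPKM in Fth1-deleted library 3 against 75.6 FPKM in control library 1, and the log2 difference was 0.65 (SE 0.25 by limma, adjusted p = 0.444). Psmc2 (chr5:21785283-21803787, plus strand) had 39.3, 36.1, 29.5 and 34.1 FPKM in Fth1-deleted libraries, against 23.7, 23.0 and 26.8 FPKM in control libraries. By FPKM it was the lowest of the 6 ATPase genes. Its groups did not overlap, and its log2 difference was 0.48 (SE 0.26 by limma, adjusted p = 0.579). Psmc3 and Psmc6 were the ATPase genes below 0, at -0.04 and -0.19, and Psmc1 was at 0.18; all of these groups overlapped.

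Psmd1 (chr1:86064387-86139151, plus strand), a large scaffold of the base, had 88.3, 75.0, 79.8 and 124 FPKM in Fth1-deleted libraries 1 to 4, against 64.3, 43.5 and 65.4 FPKM in control libraries 1 to 3. Its groups did not overlap, with Fth1-deleted library 4 the high one, and the log2 difference was 0.65 (SE 0.24 by limma, adjusted p = 0.433). Psmd2, the other large scaffold and the most abundant cap gene, had 234, 236, 301 and 254 FPKM in Fth1-deleted libraries, against 256, 191 and 222 FPKM in control libraries. Its groups overlapped, with a log2 difference of 0.20 (SE 0.17). Psmd4, a ubiquitin receptor, had overlapping groups and a log2 difference of 0.15 (SE 0.23). The chaperones of base assembly, Psmd5, Psmd9 and Psmd10, had log2 differences of 0.31, 0.39 and -0.05 with overlapping groups. Psmc3ip matches the name rule but encodes a partner of meiotic recombinases and no cap subunit; its log2 difference was 0.52 (SE 0.35), and its exons overlap those of Mlx on the opposite strand.

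The core lay nearer 0 than the cap: 9 of 15 log2 differences were above 0 (60%, against 48.7% of all genes tested), with a median of 0.08. In 1 of the 15 the Fth1-deleted libraries were higher without overlap (against 4.1% of all genes tested). The difference between the classes was not tested. The 7 alpha subunits Psma1 to Psma7 had a median of 0.08 and the 7 beta subunits Psmb1 to Psmb7 a median of 0.01. The summed core level was 1976, 1589, 1448 and 2158 FPKM in Fth1-deleted libraries 1 to 4, against 1661, 1636 and 1989 FPKM in control libraries 1 to 3. Fth1-deleted libraries 2 and 3 lay below all controls and library 4 above them, so the groups overlapped. The summed cap over the summed core was 1.13, 1.21, 1.30 and 1.04 in Fth1-deleted libraries, against 1.04, 0.915 and 0.910 in control libraries. This ratio overlapped by a small margin, with Fth1-deleted library 4 just below control library 1. Without the libraries with Y-linked reads, which leaves Fth1-deleted library 4 against control libraries 1 and 3, the core median was 0.36.

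Psmb3 (chr11:97703399-97713500, plus strand), a beta subunit without proteolytic activity, stood apart from the rest of the core. It had 132, 142, 104 and 151 FPKM in Fth1-deleted libraries 1 to 4, against 76.2, 91.1 and 70.4 FPKM in control libraries 1 to 3. The groups did not overlap, with a fold of the means of 1.67 and a log2 difference of 0.73 (SE 0.20 by limma, adjusted p = 0.285, two-sided exact permutation p = 0.0571). The pseudogenes AC114990.1, Gm4950 and Gm5356 are 96.3% to 97.1% identical to it, and reads could be split among them. Psma5, an alpha subunit, was at the other end of the core: 118, 78.1, 69.6 and 130.4 FPKM in Fth1-deleted libraries, against 175, 86.7 and 128 FPKM in control libraries. Its groups overlapped, with a log2 difference of -0.38 (SE 0.29 by limma, adjusted p = 0.698), and it too has near-identical pseudogene copies. Psma2, an alpha subunit, had 50.1, 40.5, 36.4 and 64.8 FPKM in Fth1-deleted libraries, against 40.8, 22.2 and 36.6 FPKM in control libraries. Control library 1 lay above Fth1-deleted libraries 2 and 3 and control library 3 above Fth1-deleted library 3, so the groups overlapped; the log2 difference was 0.53 (SE 0.30).

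Psmb4, the most abundant core gene, had 309, 297, 153 and 298 FPKM in Fth1-deleted libraries, against 267, 284 and 276 FPKM in control libraries. Fth1-deleted library 3 was far below the other 6 libraries, and the log2 difference was -0.12 (SE 0.24). Psma8, a testis-type alpha subunit and the lowest member tested in the core, had 2.03, 12.7, 5.43 and 13.9 FPKM in Fth1-deleted libraries, against 2.68, 2.47 and 10.03 FPKM in control libraries. Its groups overlapped widely. The proteolytic subunits Psmb5, Psmb6 and Psmb7 had log2 differences of 0.21, 0.01 and 0.10, with SE of 0.32, 0.24 and 0.33, and overlapping groups.

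**Figure D3:**
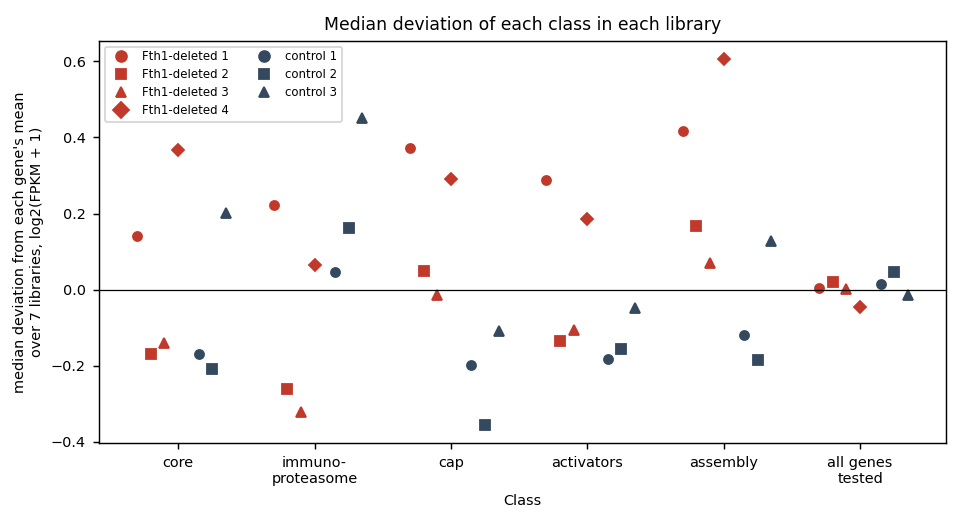
Median over the genes of each class of the deviation from the gene's mean over the 7 libraries, on the log2(FPKM + 1) scale; each point is a library, with Fth1-deleted libraries left of control libraries in each class. The cap is the class whose groups do not overlap, and the median of all genes tested stays between -0.05 and 0.05.

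The immunoproteasome genes had log2 differences below 0, with 0 of 3 above 0 (against 48.7% of all genes tested). The median was -0.21, and all had overlapping groups. Psmb8 (chr17:34197721-34201454, plus strand), which replaces Psmb5, had 122, 50.5, 64.3 and 78.9 FPKM in Fth1-deleted libraries 1 to 4, against 102, 89.3 and 71.3 FPKM in control libraries 1 to 3. Its highest and its lowest value were both in Fth1-deleted libraries, and the log2 difference was -0.21 (SE 0.29 by limma, adjusted p = 0.828). Psmb9 (chr17:34181987-34187764, minus strand), which replaces Psmb6, had 155, 111, 106 and 141 FPKM in Fth1-deleted libraries, against 137, 113 and 182 FPKM in control libraries. Its log2 difference was -0.16 (SE 0.22 by limma, adjusted p = 0.832), and 5.79% of its exon bases overlap Tap1 on the opposite strand. Psmb10 (chr8:105935735-105938444, minus strand), which replaces Psmb7, had 162, 148, 105 and 165 FPKM in Fth1-deleted libraries, against 145, 183 and 217 FPKM in control libraries. The log2 difference was -0.32 (SE 0.21 by limma, adjusted p = 0.657), and control library 1 lay among the Fth1-deleted libraries.

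The sum of the 3 immunoproteasome genes over the sum of Psmb5, Psmb6 and Psmb7 was 1.40, 1.25, 1.33 and 0.997 in Fth1-deleted libraries 1 to 4, against 1.73, 1.16 and 1.78 in control libraries 1 to 3. It averaged 1.25 ± 0.178 in Fth1-deleted libraries and 1.56 ± 0.343 in control libraries (SD, n = 4 and n = 3), with overlap through control library 2. In 6 of the 7 libraries the summed FPKM of the inducible genes was therefore above that of the constitutive ones. Psmb10 over Psmb7 was 4.39, 7.60, 5.41 and 4.80 in Fth1-deleted libraries, against 6.91, 7.64 and 7.32 in control libraries. The length used was 799 bases for Psmb10 and 2004.5 bases for Psmb7, and their median reads were 1947 and 715. Psmb8 over Psmb5 ranged over 0.765 to 1.44 in Fth1-deleted libraries and 1.11 to 1.58 in control libraries. Psmb9 over Psmb6 ranged over 0.569 to 0.875 in Fth1-deleted libraries and 0.497 to 1.04 in control libraries.

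The activators had 3 of 5 log2 differences above 0 (60%, against 48.7% of all genes tested), a median of 0.23, and overlapping groups throughout. Psme1 forms the interferon-inducible activator ring with Psme2 and was the most abundant activator by FPKM. It had 423, 263, 270.2 and 304 FPKM in Fth1-deleted libraries, against 255, 256 and 283 FPKM in control libraries. Fth1-deleted library 1 was the high one, and the log2 difference was 0.23 (SE 0.19 by limma, adjusted p = 0.723). Psme2 and Psme2b are 99.4% identical over their aligned part, so reads may be split between them. Psme2 had 96.0, 34.1, 63.9 and 106 FPKM in Fth1-deleted libraries, against 134, 85.9 and 29.8 FPKM in control libraries. The sum of Psme2 and Psme2b varied less, at 167, 100.7, 114 and 180.4 FPKM in Fth1-deleted libraries, against 175, 143 and 153 FPKM in control libraries. Psme1 over that sum was 2.54, 2.61, 2.37 and 1.68 in Fth1-deleted libraries, against 1.45, 1.79 and 1.85 in control libraries.

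Psme3, the nuclear activator that works without ubiquitin, had 271, 224, 206 and 274 FPKM in Fth1-deleted libraries, against 173, 209.9 and 215 FPKM in control libraries. Fth1-deleted library 3 lay below control libraries 2 and 3, and the log2 difference was 0.29 (SE 0.18 by limma, adjusted p = 0.634). Psme4, the single-chain activator linked to histone turnover, had 62.0, 50.8, 75.1 and 57.7 FPKM in Fth1-deleted libraries, against 52.0, 50.4 and 49.8 FPKM in control libraries. Its groups met at Fth1-deleted library 2, and the log2 difference was 0.26 (SE 0.22 by limma, adjusted p = 0.724). Psmf1, an inhibitor of the core, had 23.8, 14.8, 16.3 and 24.1 FPKM in Fth1-deleted libraries, against 20.96, 26.04 and 23.3 FPKM in control libraries. Its groups overlapped, with a log2 difference of -0.26 (SE 0.31 by limma, adjusted p = 0.804).

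Among the assembly chaperones, Psmg4 was the member farthest apart between the groups. Psmg4 (chr13:34162964-34178173, plus strand), a chaperone that starts the alpha ring, had 112, 86.7, 95.2 and 92.4 FPKM in Fth1-deleted libraries 1 to 4, against 39.9, 21.6 and 38.2 FPKM in control libraries 1 to 3. The lowest Fth1-deleted library was above the highest control library by a wide margin. The means were 96.6 ± 10.9 FPKM in Fth1-deleted libraries and 33.2 ± 10.1 FPKM in control libraries (SD, n = 4 and n = 3), a fold of 2.91. The log2 difference was 1.56 (SE 0.25, limma unadjusted p = 5.11e-05, adjusted p = 0.0667, two-sided exact permutation p = 0.0286). It did not pass the adjusted test. Over the 21 other settings the log2 difference was 1.28 to 2.39 and the adjusted p 0.0440 to 0.684. Psmg4 passed by limma with a term for Y-linked reads (adjusted p = 0.0475) and with ribosomal RNA as a covariate (adjusted p = 0.0440). That covariate largely follows the genotype: ribosomal RNA took 1.21% to 1.34% of reads in Fth1-deleted libraries and 0.0140% to 0.984% in control libraries. No near-identical copy and no overlapping exon was found for Psmg4.

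Psmg4 works as a pair with Psmg3, and Psmg1 with Psmg2. Psmg3 had 3.33, 9.10, 5.31 and 12.97 FPKM in Fth1-deleted libraries, against 6.99, 7.99 and 12.5 FPKM in control libraries. Its groups overlapped, with a log2 difference of -0.33 (SE 0.52 by limma, adjusted p = 0.854), and its FPKM was below that of its partner. The length used was 1339 bases for Psmg3 and 514.5 bases for Psmg4, and their median reads were 161 and 607. Psmg4 over Psmg3 was 33.6, 9.52, 17.9 and 7.12 in Fth1-deleted libraries, against 5.70, 2.70 and 3.05 in control libraries, without overlap.

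Psmg1 (chr16:95979933-95990960, minus strand) had 73.9, 54.3, 68.9 and 49.0 FPKM in Fth1-deleted libraries, against 44.8, 24.9 and 39.9 FPKM in control libraries. Its groups did not overlap, and the log2 difference was 0.76 (SE 0.27 by limma, adjusted p = 0.414). Its partner Psmg2 had 48.5, 10.7, 38.0 and 55.5 FPKM in Fth1-deleted libraries, against 56.5, 31.6 and 39.5 FPKM in control libraries. Fth1-deleted library 2 was the low one, the groups overlapped, and the log2 difference was -0.33 (SE 0.48 by limma, adjusted p = 0.837). Psmg1 over Psmg2 was 1.52, 5.08, 1.81 and 0.884 in Fth1-deleted libraries, against 0.794, 0.788 and 1.01 in control libraries. In each pair 1 gene was higher without overlap and its partner was not. Of the 5 assembly genes, 2 were higher without overlap, against 4.1% of all genes tested. Their log2 difference was above 0 in 2 of 5 (40%), against 48.7% of all genes tested.

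Pomp, which matures the beta rings, had 113, 64.5, 74.0 and 114 FPKM in Fth1-deleted libraries, against 72.4, 107 and 99.1 FPKM in control libraries. Its groups overlapped, with a log2 difference of -0.05 (SE 0.25). Over the 5 assembly genes the median log2 difference was -0.05 and the mean 0.32, with opposite signs because Psmg4 and Psmg1 lie far from the other 3. The sum of Psmg1 to Psmg4 was 238, 161, 207 and 209.8 FPKM in Fth1-deleted libraries, against 148, 86.1 and 130.1 FPKM in control libraries, without overlap.

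**Figure D4:**
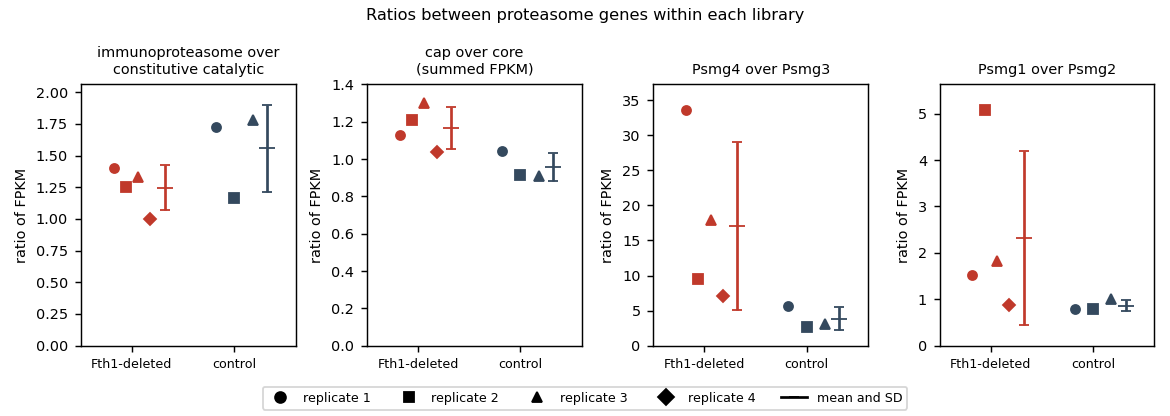
Ratios of FPKM between proteasome genes within each library, on linear axes that start at 0, with Fth1-deleted libraries left and control libraries right; symbols are replicate numbers and bars the mean ± SD (n = 4 and n = 3). Psmg4 over Psmg3 is the ratio whose groups do not overlap, at 7.12 to 33.6 in Fth1-deleted libraries and 2.70 to 5.70 in control libraries.

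All members together took 0.755%, 0.627%, 0.612% and 0.727% of the summed FPKM in Fth1-deleted libraries 1 to 4, against 0.637%, 0.603% and 0.703% in control libraries 1 to 3. The means were 0.680% ± 0.0715 in Fth1-deleted libraries and 0.648% ± 0.0510 in control libraries (SD, n = 4 and n = 3), a difference smaller than either spread. Fth1-deleted libraries 1 and 4 held more proteasome RNA than libraries 2 and 3 by the median deviation of the core, the cap, the activators and the assembly genes. A member had a median of 1277.5 reads in a library, which gives a counting error of 2.80%. The coefficient of variation between libraries was larger, with a median over members of 20.3% in Fth1-deleted libraries and 25.8% in control libraries. Over all genes tested it was 32.8% and 38.1%. The median level was 84.7 FPKM over members and 17.3 FPKM over all genes tested, so these spreads were not compared at like level.

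The members lie on 16 chromosomes, and 10 of the 50 tested are on chromosome 11. Of these 10, 4 were higher without overlap (Psmb3, Psmd3, Psmd11 and Psmd12), and their median log2 difference was 0.57. Over all 1127 genes tested on chromosome 11, 67 were higher without overlap (5.94%) and the median was 0.01.

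Genes that control the proteasome or work with it were counted over lists of known genes. Of 13 genes that control proteasome gene expression, 0 passed the test in either direction and 4 had a log2 difference above 0, with a median of -0.18. Nfe2l1 encodes NRF1, the factor known to induce proteasome genes when the proteasome is inhibited; its mean was 66.7 ± 7.11 FPKM in Fth1-deleted libraries and 78.4 ± 10.1 FPKM in control libraries, a log2 difference of -0.23 (SE 0.21). Nfe2l2 encodes NRF2, and had 43.9 ± 6.997 FPKM in Fth1-deleted libraries and 70.7 ± 11.1 FPKM in control libraries, a log2 difference of -0.68 (SE 0.23 by limma, adjusted p = 0.385). Ngly1, the glycanase that activates NRF1, had 28.5 ± 8.46 FPKM in Fth1-deleted libraries and 16.4 ± 4.78 FPKM in control libraries, with a log2 difference of 0.74 (SE 0.35). Btrc, a ubiquitin ligase adaptor that targets both factors, had a log2 difference of -0.62 (SE 0.32).

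Among 11 proteins that bind the proteasome, 0 passed and 5 had a log2 difference above 0. Uchl5, a deubiquitinase on the cap, had 84.8 ± 11.2 FPKM in Fth1-deleted libraries and 54.6 ± 18.6 FPKM in control libraries (log2 difference 0.68, SE 0.26 by limma, adjusted p = 0.440). Zfand5, a stimulator of the proteasome, had 50.4 ± 6.68 FPKM in Fth1-deleted libraries and 72.1 ± 9.08 FPKM in control libraries, a log2 difference of -0.51 (SE 0.22). The deubiquitinase Usp14 was at 0.19 (SE 0.24). Of the 6 ubiquitin genes and ubiquitin-loading enzymes, 0 passed and 3 were above 0. The ubiquitin fusion gene Rps27a was at 0.68 (SE 0.37) and the activating enzyme Uba6 at 0.15 (SE 0.41). Rps27a had 368, 850, 341 and 1150 FPKM in Fth1-deleted libraries 1 to 4, against 355, 312 and 457 FPKM in control libraries 1 to 3. Its groups overlapped, with Fth1-deleted libraries 2 and 4 the high ones. Of 14 ubiquitin shuttles and cofactors of the unfolding ATPase Vcp, 0 passed and 9 were above 0; Ufd1, a Vcp cofactor, had 40.6 ± 15.1 FPKM in Fth1-deleted libraries and 70.6 ± 11.4 FPKM in control libraries (log2 difference -0.86, SE 0.33). Vcp itself was at 0.32 (SE 0.20) and its membrane cofactor Faf2 at 0.38 (SE 0.25).

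Antigen processing and interferon genes, which work with the immunoproteasome, also had 0 of 11 past the test, 2 of 11 above 0 and a median of -0.28. The class I gene H2-K1 had 2179 ± 99.8 FPKM in Fth1-deleted libraries and 2869 ± 288 FPKM in control libraries, a log2 difference of -0.39 (SE 0.15 by limma, adjusted p = 0.436). H2-D1, another class I gene, was at -0.35 (SE 0.15), and Nlrc5, the activator of class I genes, at -0.45 (SE 0.23). Tap1, the peptide transporter gene next to Psmb8 and Psmb9, had a log2 difference of -0.29 (SE 0.19). Of 11 NRF2 targets tested, 1 rose (Hmox1, heme oxygenase), at 101.5 ± 30.3 FPKM in Fth1-deleted libraries and 22.1 ± 4.58 FPKM in control libraries (log2 difference 2.12, SE 0.28 by limma, adjusted p = 0.0213). The list's median was 0.75, with 10 of 11 above 0; Gclm, of glutathione synthesis, was at 0.91 (SE 0.23) and thioredoxin Txn1 at 0.77 (SE 0.21). Of 17 cell division genes 0 passed, 17 were above 0, the median was 0.71, and their summed level was 2135 to 2268 FPKM in Fth1-deleted libraries and 1285 to 2139 FPKM in control libraries. Rrm2, of nucleotide synthesis, was at 1.09 (SE 0.20), and the mitotic genes Hmmr and Cdca3 at 1.15 (SE 0.29) and 0.87 (SE 0.23). The part of both lists in the proteasome values was not tested.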

How the data were processed

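RNA was sequenced from 4 Fth1-deleted and 3 control HSC libraries. Per the series' design text and the submitters' processing notes, paired reads were aligned to GRCm38 with HISAT2 2.0.4 and counted per gene with HTSeq 0.9.1, and the authors computed FPKM from gene length and count. The strand setting of the counting and the annotation release are not given in the sources used here.

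From the deposited FPKM values, symbols and coordinates were taken from GENCODE M21 (GRCm38), which matched 55480 of 55855 identifiers. limma 3.58.1 (R 4.3.3, trended prior) compared log2(FPKM + 1) for genes whose mean over the libraries was at least 1 FPKM, with Benjamini-Hochberg adjustment over all 13948 genes and a threshold of 0.05. Fold changes on this scale understate the change of low genes. Read counts were recovered from the FPKM steps and gene lengths, giving 12058392 to 15453168 reads per library; 98.8% to 99.4% of values under 50 reads were whole within 0.05. They served voom as an alternative. Single values were compared with the two-sided exact permutation test over 35 splits. Copies were sought with BLAST 2.17.0 (at least 95% identity over at least 50% of the longest transcript).

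The members and gene lists were chosen with earlier results of these data known. Named were, in each class, the 3 genes with the smallest p and those of highest and lowest level, always the proteolytic, activator, inhibitor and assembly genes, and in each gene list those past the threshold or of smallest p; other cap genes were added after their values were seen. Subsets of libraries by ribosomal RNA, mt-Co2 or Y-linked reads were chosen after seeing the data. Some genes that the naming rule covers are not reported here.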

Additional observations from a re-analysis of the deposited data

Results flagged for a closer look

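Of 50 members and 10 ratios searched, 1 library stood far from the rest of its group. Psmb4, a beta subunit of the core, had 153 FPKM in Fth1-deleted library 3, the lowest of the 4 Fth1-deleted libraries, while the other 3 had 297 to 309 FPKM. The gap to the nearest library was 0.925 of the group's range, above Dixon's 95% critical value for 4 samples. Chance gives such a gap in about 1 in 20 groups. Fth1-deleted library 3 is also the Fth1-deleted library with 15332 mt-Co2 reads, and the part of this in the value was not tested.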

How the results depend on the processing

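The number of genes passing over all genes, 8, was 17 with a term for Y-linked reads, 17 without the trended prior, 32 with ribosomal RNA as a covariate, 5 with voom, 4 over protein-coding genes, 0 without the filter and 0 with replicate number as a block. In subsets chosen after seeing the data it was 234 with libraries of high ribosomal RNA, and 0 with libraries of low mt-Co2, with Y-linked reads or without Y-linked reads. Leaving out 1 library gave 0 to 19 genes: 19 without control library 1, 13 without control library 2, 0 without control library 3 and 1 without Fth1-deleted library 3. Members passing, 0, were 1 (Psmg4) with the Y-linked term, the ribosomal RNA covariate or the libraries of high ribosomal RNA. Members higher without overlap, 9, were 7 with TPM scaling, 26 with high ribosomal RNA, 17 with low mt-Co2, and 9 to 15 with 1 library left out (14 without control library 1, 15 without control library 3); members lower without overlap, 0, were 3 with high ribosomal RNA, 1 with low mt-Co2 and 0 to 2 with 1 library left out (1 without control library 1, 2 without control library 2). Fewer libraries separate by construction more often. The members' median of 0.18 was 0.11 with TPM scaling, 0.12 with quantile normalization, 0.35 with the ribosomal RNA covariate, 0.38 without Y-linked reads and 0.08 to 0.26 with 1 library left out. The core median of 0.08 was 0.33 with the ribosomal RNA covariate, 0.36 without Y-linked reads and -0.03 to 0.17 with 1 library left out. The cap median of 0.38 was 0.60 with the covariate and 0.27 to 0.48 with 1 library left out, above 0 in every setting run. The assembly median of -0.05 was 0.20 with the covariate, 0.42 without Y-linked reads and -0.17 to 0.17 with 1 library left out, with 0.17 when Fth1-deleted library 2 was left out. With 1 library left out, the immunoproteasome median of -0.21 was -0.39 to -0.09, the activator median of 0.23 was 0.08 to 0.30, the difference in the immunoproteasome to constitutive ratio of -0.31 was -0.51 to -0.20, and the difference in the members' share of 0.033 percentage points was 0.00765 to 0.0605. TPM scaling gave medians of 0.01 (core), 0.30 (cap), 0.15 (activators) and -0.13 (assembly). With the replicate block, which uses 3 pairs and not Fth1-deleted library 4, the medians were 0.08 (members), -0.03 (core), -0.23 (immunoproteasome), 0.34 (cap), 0.23 (activators) and -0.17 (assembly). Same-numbered libraries deviated with correlations of 0.00900, 0.0609 and -0.0370, so the numbers were not taken as pairs. Signs of single members changed in 0 to 10 of 50 genes per setting, 10 with the ribosomal RNA covariate. The causes of these changes were not tested.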
